A study of Mus musculus with 10 samples.

Results

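Ion channel genes of the potassium, sodium and voltage-gated calcium families were examined in mouse brain after transient focal ischaemia. A gene belonged to the set when its annotated symbol begins with Kcn, with Scn and a digit, or with Cacna1, Cacna2d, Cacnb or Cacng, so the Kcn group also holds potassium channels without a voltage sensor. Of 116 such genes with a named probe, 73 were above background on at least 2 of the 10 arrays, and each is represented by its brightest probe that passed. These 73 comprise 48 potassium, 8 sodium and 17 calcium channel genes out of 9351 genes tested. Of the 43 that did not pass, 42 had no probe above background on any array and 1 had a probe above background on 1 array. The filter was met by 56 members on all 10 arrays and by 17 on 2 to 9 arrays, and 4 of these 17 were above background only in ipsilateral tissue.

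Voltage-gated sodium channels carry the upstroke of the neuronal action potential, voltage-gated potassium channels end it, and voltage-gated calcium channels admit the calcium that triggers transmitter release. Two-pore and inwardly rectifying potassium channels set the resting potential of neurons, glia, microglia and vascular cells. Pore subunits work with auxiliary subunits that steer them to the membrane and tune their gating, and ischaemia disturbs the ion gradients on which all of these channels depend.

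The tissue came from 10-week-old mice of the strain C57/Bl6, either Cd93 knockout (KO) or wild type (WT). Mice of both genotypes underwent middle cerebral artery occlusion, in which the artery that supplies much of the striatum and cortex of 1 hemisphere is blocked and then reopened. In 1 protocol the occlusion lasted 30 min and reperfusion 72 h, and in the other 60 min and 48 h; occlusion and reperfusion time changed together and cannot be told apart. The 10 arrays hold ipsilateral (occluded side) tissue of both protocols, contralateral tissue of both protocols and untreated brain, each with 1 KO and 1 WT array. No group was replicated: a p-value below measures how steady a difference was across genotypes and conditions, and the labels leave unstated whether single or pooled mice were hybridised and whether the 2 hemispheres of a genotype are from the same animals. The labels also do not say how the Cd93 allele was made or which stretch of the gene it lacks.

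Each array had 12811 to 16310 probes above background, among them those of 58 to 72 of the 73 channel genes. The ipsilateral arrays had the most probes, 14463 (KO) and 14251 (WT) at 72 h and 16310 and 15734 at 48 h. Contralateral arrays had 13810, 13790, 13971 and 13887 in the same order, and untreated arrays 12811 and 13769. Channel genes above background were also most numerous on the 48 h ipsilateral arrays, at 69 and 72. The part of this in the hemisphere counts was not tested. Cd93 was lower in KO than in WT tissue in all 5 conditions, with a log2 difference of -1.52 ± 0.18 (SE) (limma adjusted p = 0.0022). All 9 measured general neuron markers were above background on all 10 arrays. The number of arrays limits the precision of every value below. Levels are log2 intensities after background correction and quantile normalization, and a level can be compared between arrays but not between genes. Where 4 levels of a side are listed, they are KO and WT of the 72 h protocol followed by KO and WT of the 48 h protocol, and untreated levels are KO and then WT.

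Promoter windows of the genes that moved in both protocols are shown first, because the genes that rose and those that fell can then be read beside their values. RefSeq (GRCm38.p6) holds a window, the 250 bases before the listed start, for 56 of the 73 members, for 2 of the 3 genes that rose and for 5 of the 8 that fell. Kcnj8 at chr6:142571615-142571864 (minus strand) and Kcnk13 at chr12:99964249-99964498 (plus strand) rose. Cacna2d3 at chr14:29721865-29722114 (minus strand), Kcnj4 at chr15:79505242-79505491 (minus strand) and Scn4b at chr9:45138374-45138623 (plus strand) fell, and they stand for calcium, potassium and sodium channels. Each is written 5′ to 3′ on the strand of its gene, and capitals mark CG dinucleotides.
Kcnj8: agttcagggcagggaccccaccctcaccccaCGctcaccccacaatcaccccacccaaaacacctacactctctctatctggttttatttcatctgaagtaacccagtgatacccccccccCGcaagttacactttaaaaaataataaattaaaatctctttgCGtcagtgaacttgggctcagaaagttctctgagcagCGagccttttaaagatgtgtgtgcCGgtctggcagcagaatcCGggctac
Kcnk13: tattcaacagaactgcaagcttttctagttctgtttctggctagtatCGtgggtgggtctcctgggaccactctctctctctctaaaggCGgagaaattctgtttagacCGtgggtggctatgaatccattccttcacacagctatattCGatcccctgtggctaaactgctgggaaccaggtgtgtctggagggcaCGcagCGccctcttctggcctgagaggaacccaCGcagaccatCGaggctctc
Cacna2d3: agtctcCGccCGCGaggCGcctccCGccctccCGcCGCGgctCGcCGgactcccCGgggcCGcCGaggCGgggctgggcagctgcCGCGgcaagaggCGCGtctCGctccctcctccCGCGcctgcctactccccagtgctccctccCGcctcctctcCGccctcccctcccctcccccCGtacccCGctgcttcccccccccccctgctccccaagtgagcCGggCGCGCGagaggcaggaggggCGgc
Kcnj4: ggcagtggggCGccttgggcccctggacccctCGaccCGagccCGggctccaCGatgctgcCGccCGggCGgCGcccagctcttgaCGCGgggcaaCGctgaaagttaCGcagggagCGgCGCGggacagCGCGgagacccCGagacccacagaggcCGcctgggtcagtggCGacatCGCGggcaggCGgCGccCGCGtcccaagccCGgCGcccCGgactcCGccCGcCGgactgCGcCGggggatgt
Scn4b: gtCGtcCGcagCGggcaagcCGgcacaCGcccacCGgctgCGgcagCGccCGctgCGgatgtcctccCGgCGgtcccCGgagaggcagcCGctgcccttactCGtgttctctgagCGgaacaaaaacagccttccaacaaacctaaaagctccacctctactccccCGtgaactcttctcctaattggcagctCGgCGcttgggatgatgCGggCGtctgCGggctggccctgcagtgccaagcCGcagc

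The 2 windows of genes that rose held 6 and 8 CG dinucleotides, and the first listed windows of the 5 genes that fell held from 5 (Kcnk2) to 35 (Kcnj4). In these first listed windows the groups overlapped, since that of Kcnk2 held fewer than either gene that rose. The later listed windows of Kcnk2 held 2, 27 and 28. The median was 9.5 over the 56 members with a window and 6 over all 27025 genes with one. The Sp1 box, searched as GGGCGG on both strands, was present in 48.2% of the members' windows and 32.9% of all windows. It occurred 4 times in the Cacna2d3 window and 3 times in that of Kcnj4, and was not found in the other 3 windows printed. The TATA box, searched as TATAAA on both strands, was present in 3.57% of the members' windows and 13% of all windows, and in none of those printed. These matches describe letters in the windows, and no binding was measured.

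After quantile normalization, more channel genes were lower than higher in ischaemic hemispheres relative to the opposite ones. Kcnh3, Cacna2d3, Kcnj4, Scn3b, Scn4b, Cacng2, Kcnk2 and Kcns2 fell in both protocols, and Kcnk6, Kcnj8 and Kcnk13 rose in both. Of those that rose, Kcnj8 met the detection filter only through ipsilateral arrays. In the 72 h protocol 15 of 73 members (20.5%) passed, against 14.5% of all genes. Of these 12 (16.4%) fell and 3 (4.11%) rose in ipsilateral tissue, where 4.16% of all genes fell and 10.3% rose. In the 48 h protocol 22 members (30.1%) passed, against 20.7% of all genes, and 19 (26%) fell and 3 (4.11%) rose, against 8.06% and 12.7% of all genes. The median difference of the members was -0.29 at 72 h and -0.28 at 48 h, beside -0.05 and -0.02 over all genes. Differences were below 0 for 62 members at 72 h (84.9%, against 58.5% of all genes) and for 57 at 48 h (78.1%, against 52.7%). These counts come from limma with Benjamini-Hochberg adjustment over all 9351 genes and a threshold of 0.05.

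The counts depended on the scaling and on single arrays. Shares of all genes are not given here for the fits without single arrays. With each array centred on its median in place of quantile normalization, the median over all genes moved to 0.07 at 72 h and 0.43 at 48 h, and 3 members rose and 2 fell at 72 h (12% and 0.749% of all genes) while 18 rose and none fell at 48 h (52.2% and 0.46% of all genes). Under that centring 58 members at 72 h and 54 at 48 h lay below the median of all genes, as 50% of all genes do by definition. Against 0, 42 members went from below to above at 48 h. Of the 15 calls at 72 h, 2 were left without the KO ipsilateral array, 5 without the KO contralateral array, and without the WT ipsilateral array 8 calls were made. The 22 calls at 48 h fell to 6 without either ipsilateral array, and 7 were made without the WT and 9 without the KO contralateral array. With the 2 hemispheres of each genotype and protocol as a block, an alternative chosen after seeing the data, 24 members passed at 72 h (4 higher and 20 lower, against 21.4% of all genes) and 33 at 48 h (4 higher and 29 lower, against 30.8% of all genes). At 72 h Scn8a, Cacnb4, Kcna2, Kcnj12, Kcnk3, Kcnk4, Kcnq1, Kcnq5 and Kcnt1 passed with this block and not without it. At 48 h the same held for Cacna1g, Cacna2d1, Cacnb1, Kcnc1, Kcnc4, Kcnd3, Kcne1l, Kcnh1, Kcnh6, Kcnip2 and Kcnj12. Of these, Kcnq1 was higher at 72 h and Kcne1l at 48 h, and Kcnq1, like Kcnj8, met the detection filter only through ipsilateral arrays. The fits without single arrays used the same filtered genes, so a kept call of Kcnj8 does not remove that limit. Calls kept without each array in turn were those of Kcnj8 and Kcnk6 in both protocols, and of Kcnh3 and Cacna2d3 at 48 h.

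**Figure D1:**
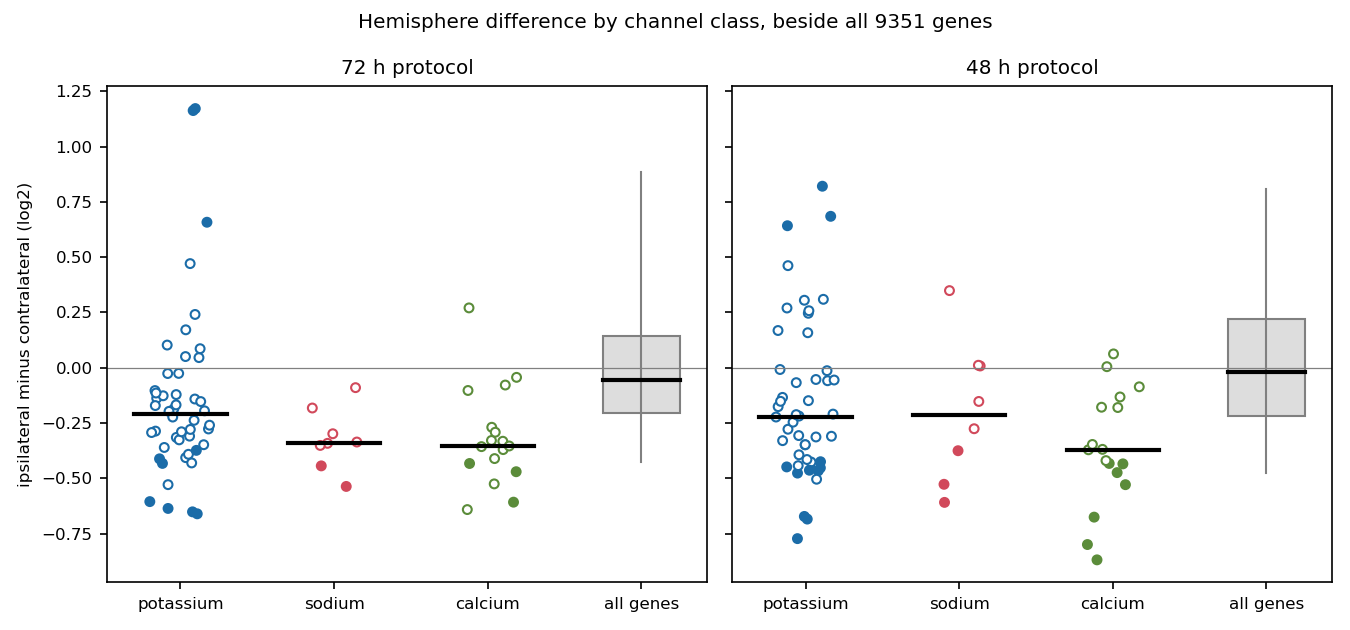
Ipsilateral minus contralateral difference (log2, vertical axis) of each member by class, for the 72 h protocol (left) and the 48 h protocol (right), after quantile normalization. Filled points passed the threshold, black bars are medians, and the box with whiskers gives the quartiles and the 0.05 and 0.95 quantiles of all genes; all 3 class medians lie below that of all genes in both protocols, and at 48 h the signs of many differences depend on the scaling.

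By class, potassium channel genes had a median difference of -0.21 at 72 h and -0.22 at 48 h, with 7 and 9 of 48 lower and 3 higher in each. Sodium channel genes had medians of -0.34 and -0.21, with 2 and 3 of 8 lower and none higher. Calcium channel genes had medians of -0.35 and -0.37, with 3 and 7 of 17 lower and none higher. Among all genes 4.16% and 8.06% were lower and 10.3% and 12.7% higher. After quantile normalization the members that rose were all potassium channel genes, whereas under median centring 3 sodium and 1 calcium channel genes rose at 48 h as well, where 52.2% of all genes did. Whether the classes differed from each other was not tested, and the 48 h medians turned positive under median centring, at 0.15, 0.27 and 0.08, all below the 0.43 of all genes.

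Taking the arrays directly, 25 members (34.2%) were lower on all 4 ipsilateral arrays than on all 4 contralateral arrays, against 12.3% of all genes. The opposite held for 5 members (6.85%), against 12.8% of all genes, namely Kcnj8, Kcnk6, Kcnk13, Kcnq1 and Kcne4. Of these, Kcnj8, Kcnq1 and Kcne4 met the detection filter only through ipsilateral arrays, so this count supports no direction. When untreated brain was added to the contralateral side, 22 members (30.1%) lay below all 6 other arrays, against 8.83% of all genes, and 4 (5.48%) lay above them, against 11.6%.

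In a bulk sample, fewer cells of a type and less RNA per cell cannot be told apart. Cell type markers moved with the same comparison. All 6 measured striatal neuron markers fell at 72 h and 5 of 6 at 48 h, and their summed intensity was 899 to 1350 in ipsilateral tissue, against 2540 to 3080 in contralateral tissue and 3130 to 3260 in untreated brain. Of 9 general neuron markers 1 fell at 72 h and 2 at 48 h, with sums of 43900 to 50100 ipsilaterally, 51600 to 56300 contralaterally and 52600 to 53700 in untreated brain. All 5 measured microglia and macrophage markers rose in both protocols, with sums of 2040 to 4660 in ipsilateral tissue, 608 to 837 in contralateral tissue and 641 to 655 in untreated brain. Endothelial and pericyte markers rose for 4 of 7 at 72 h, and for 2 with 1 lower at 48 h, with sums of 3970 to 7000 ipsilaterally, 2360 to 3050 contralaterally and 2380 to 2610 in untreated brain. Astrocyte markers rose for 3 of 6 in each protocol, with sums of 23000 to 25800 in ipsilateral tissue, 18100 to 19700 in contralateral tissue and 17500 to 18100 in untreated brain. Oligodendrocyte markers rose for 2 of 5 at 72 h and for 1 at 48 h. Their sums were 24200 to 25600 ipsilaterally, 21000 to 23400 contralaterally and 20800 to 23900 in untreated brain. Choroid plexus markers rose for none of 6 at 72 h and for 1 at 48 h. Their sums of 6780 to 7790 ipsilaterally and 5580 to 7480 contralaterally overlapped. Markers without a named probe included Adora2a of the striatal list and Cd68 and Csf1r of the microglial list. The part of these cell types in the channel results was not tested.

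**Figure D2:**
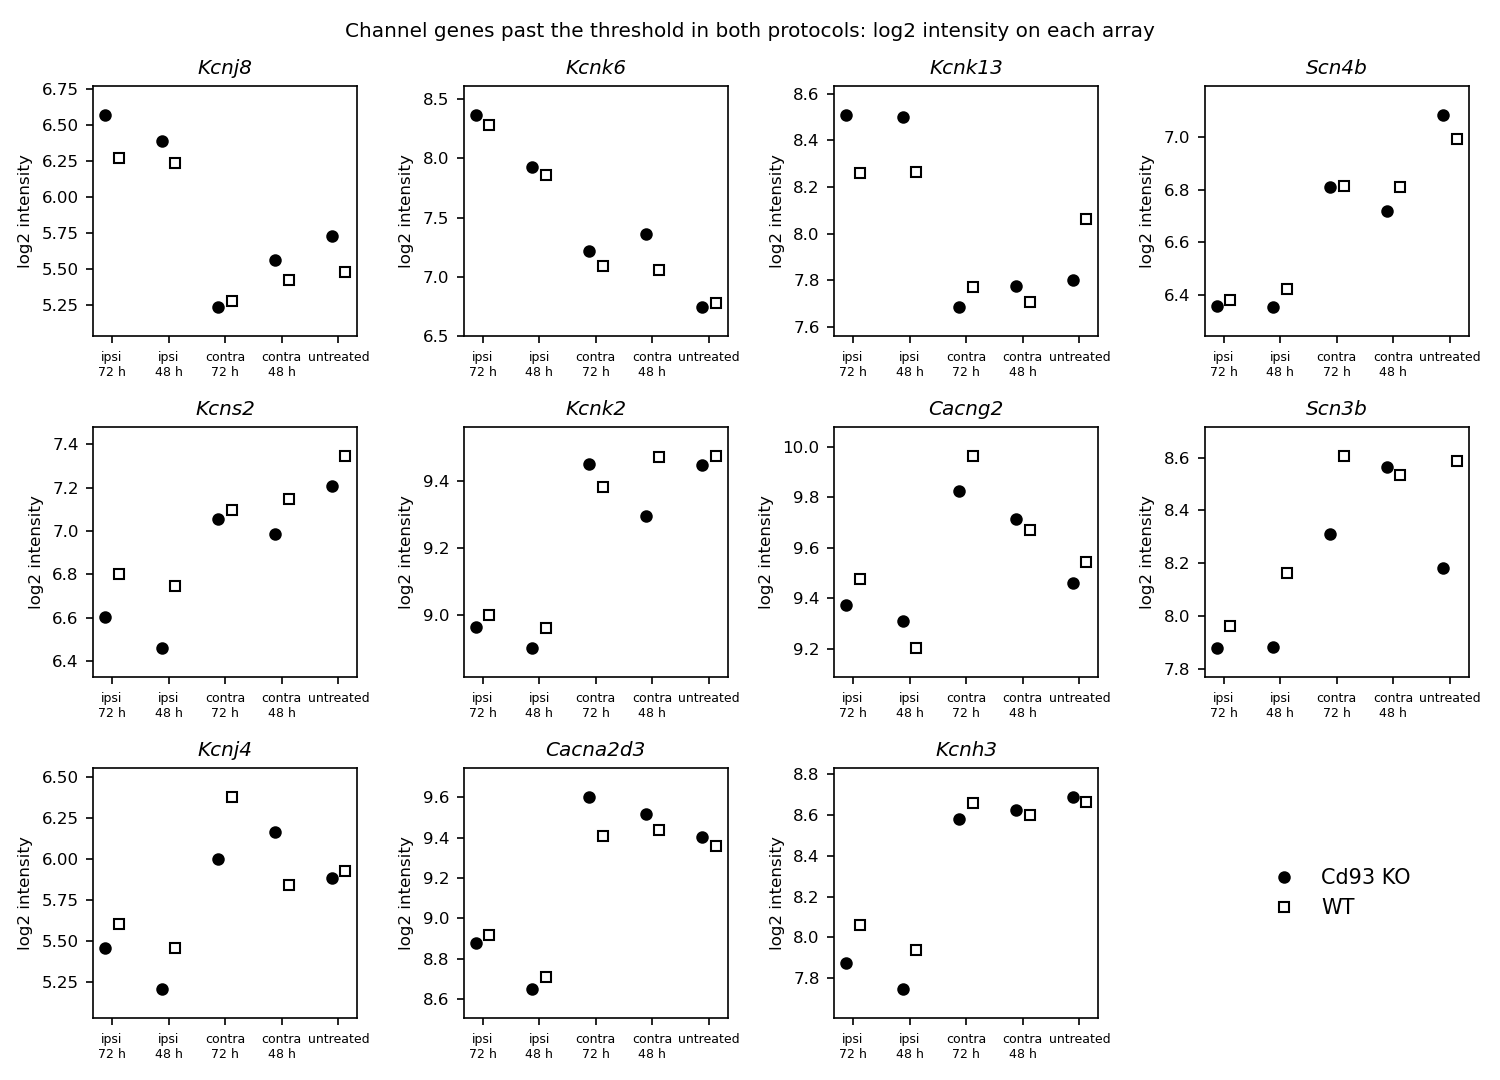
Log2 intensity (vertical axis, a separate scale for each gene) of the 11 members that passed the threshold in both protocols, on each array by condition (horizontal axis). Filled circles are KO and open squares WT arrays. For all 11 the 4 ipsilateral arrays lie on 1 side of the 4 contralateral arrays. The 11 were chosen by this difference on the same arrays, so their separation adds no support. Among all genes 12.3% lay below and 12.8% above in this way. Under median centring the differences of Scn4b, Cacng2, Kcnk2 and Kcns2 at 48 h turn to slightly above 0.

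The 3 potassium channel genes that rose are known from vascular and immune cells as much as from neurons. Kcnk6 encodes a two-pore channel of macrophages and vessels. Its level was 8.37, 8.28, 7.93 and 7.86 in ipsilateral tissue, against 7.22, 7.09, 7.36 and 7.06 in contralateral tissue and 6.74 and 6.77 in untreated brain. All ipsilateral arrays lay above all others, the 72 h pair above the 48 h pair, and untreated brain was lowest. The difference between hemispheres was 1.17 ± 0.12 (SE) at 72 h (limma adjusted p = 8.65e-05) and 0.69 ± 0.12 at 48 h (adjusted p = 0.00321).

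Kcnj8 encodes the pore of the ATP-sensitive potassium channel of pericytes and vascular smooth muscle. Its level was 6.57, 6.27, 6.39 and 6.24 in ipsilateral tissue, against 5.24, 5.28, 5.56 and 5.43 in contralateral tissue and 5.73 and 5.48 in untreated brain. It was above background on the 4 ipsilateral arrays and on none of the other 6, so its contralateral level is uncertain. The fitted difference was 1.16 ± 0.12 at 72 h, or 2.24-fold (limma adjusted p = 0.0001). At 48 h it was 0.82 ± 0.12, or 1.77-fold (adjusted p = 0.00133). The detection filter admitted Kcnj8 only through the side where it is high; with no filter its difference was 1.16 at 72 h and 0.82 at 48 h (limma adjusted p = 0.000848 and 0.00476). Here and below, such a fold sets the brighter side's mean against the higher of the lowest detected level and the probe's own value on each dim array. For Kcnj8, Kcnj4 and Kcnip2 the probe's own values were used, so the fold restates the fitted difference and shares its error. Of 3 measured pericyte markers, Rgs5 rose at 72 h (0.47, adjusted p = 0.0464) and not at 48 h (0.22), and Pdgfrb (0.31 and 0.33) and Cspg4 (-0.12 and -0.43) passed in neither protocol. Abcc9, which encodes the regulatory partner of Kcnj8, did not pass the detection filter.

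Kcnk13 encodes a two-pore channel that sets the resting potential of microglia. Its level was 8.51, 8.26, 8.50 and 8.27 in ipsilateral tissue, against 7.68, 7.77, 7.77 and 7.71 in contralateral tissue and 7.80 and 8.06 in untreated brain. The ipsilateral arrays did not overlap with the others, and WT untreated brain came closest to them. The difference was 0.66 ± 0.14 at 72 h (limma adjusted p = 0.0114) and 0.64 ± 0.14 at 48 h (adjusted p = 0.0123). It missed the threshold at 72 h without the KO ipsilateral or KO contralateral array, and at 48 h without either contralateral array or the KO ipsilateral array, with adjusted p up to 0.138 and 0.145. All 3 genes stayed higher and past the threshold under median centring.

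By limma adjusted p, though not by size, the opposite direction was led by Kcnh3 and Cacna2d3. Kcnh3 encodes a slowly gating potassium channel of forebrain neurons that restrains their excitability. Its level was 7.88, 8.06, 7.74 and 7.94 in ipsilateral tissue, against 8.58, 8.66, 8.63 and 8.60 in contralateral tissue and 8.69 and 8.66 in untreated brain, with no overlap. It fell by 0.65 ± 0.11 on the log2 scale at 72 h (limma adjusted p = 0.0034) and by 0.77 ± 0.11 at 48 h (adjusted p = 0.00142), and the 72 h call was lost without the KO ipsilateral array (adjusted p = 0.0516). Cacna2d3 encodes an alpha2delta subunit, which brings calcium channels to the presynaptic membrane. Its level was 8.88, 8.92, 8.65 and 8.71 in ipsilateral tissue, against 9.60, 9.41, 9.52 and 9.44 in contralateral tissue and 9.40 and 9.36 in untreated brain. Again the ipsilateral arrays were lowest without overlap, the 48 h pair below the 72 h pair. It fell by 0.61 ± 0.11 at 72 h (adjusted p = 0.00487) and by 0.80 ± 0.11 at 48 h (adjusted p = 0.00109), and the 72 h call was lost without the KO ipsilateral or KO contralateral array (adjusted p up to 0.0649).

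These were also the 2 genes that stayed past the threshold as lower at 72 h under median centring, with differences of -0.51 and -0.49. At 48 h no decrease passed the threshold under that scaling, where Kcnh3 stood at -0.28 and Cacna2d3 at -0.31 beside a median of 0.43 over all genes.

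Kcnj4 and Kcnip2 fell to levels at or near background. The 72 h calls of both were lost under median centring, in the authors' table and with no detection filter. The 48 h call of Kcnj4 was lost under median centring and in the authors' table. Kcnj4 encodes an inward rectifier of forebrain neurons. Its level was 5.46, 5.60, 5.20 and 5.46 in ipsilateral tissue, against 6.0, 6.38, 6.16 and 5.84 in contralateral tissue and 5.88 and 5.93 in untreated brain. At 72 h it was below background on both ipsilateral arrays, with a difference of -0.66 ± 0.16, or 1.58-fold lower (limma adjusted p = 0.0201). At 48 h it fell by 0.67 ± 0.16 (adjusted p = 0.0166), with 1 ipsilateral array above background. Kcnip2 encodes a calcium-binding partner of the A-type potassium channels. Its level was 5.26, 5.42, 5.21 and 5.42 in ipsilateral tissue, against 6.09, 5.87, 5.51 and 5.95 in contralateral tissue and 5.87 and 6.17 in untreated brain. It was below background on both ipsilateral arrays at 72 h, with a difference of -0.64 ± 0.15, or 1.55-fold lower (adjusted p = 0.019). Its 48 h difference of -0.41 ± 0.15 did not pass (adjusted p = 0.0764).

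Among the other potassium channel genes, Kcnk2 and Kcns2 fell in both protocols. Kcnk2, a two-pore channel gated by membrane stretch and lipids, had levels of 8.97, 9.0, 8.90 and 8.96 in ipsilateral tissue, against 9.45, 9.38, 9.30 and 9.47 in contralateral tissue and 9.45 and 9.47 in untreated brain. It fell by 0.43 ± 0.11 (limma adjusted p = 0.0258) at 72 h and by 0.45 ± 0.11 (adjusted p = 0.0186) at 48 h, but stood at 0.04 at 48 h under median centring. Kcns2, which encodes a subunit that is silent alone and modifies other potassium channels, had levels of 6.60, 6.80, 6.46 and 6.75 in ipsilateral tissue, against 7.06, 7.10, 6.99 and 7.15 in contralateral tissue and 7.21 and 7.35 in untreated brain. Ipsilateral arrays were lowest for both genes without overlap. Kcns2 fell by 0.37 ± 0.11 (adjusted p = 0.0474) at 72 h and by 0.46 ± 0.11 (adjusted p = 0.0172) at 48 h. Its 72 h call was lost whichever array was left out, with estimates from -0.45 to -0.29. That call was also lost without background correction, with an offset of 50, under median centring, in the authors' table and with only the arrays compared. At 72 h Kcnh7 and Kcnc1 also fell, by 0.61 ± 0.13 (adjusted p = 0.0103) and 0.41 ± 0.11 (adjusted p = 0.03). Kcnh7 is an ether-a-go-go-related channel gene, with levels of 6.04 and 6.20 in ipsilateral, 6.83 and 6.62 in contralateral and 6.96 and 7.11 in untreated tissue.

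Kcnc1 encodes a fast channel of rapidly firing neurons and had levels of 8.99 and 9.05 in ipsilateral tissue at 72 h, against 9.47 and 9.39 in contralateral tissue, and its second probe did not pass (-0.29). At 48 h Kcnk12, Kcna3 and Kcnf1 fell. Kcnk12, a two-pore gene closely related to Kcnk13, had levels of 6.56 and 6.23 in ipsilateral tissue, against 6.97 and 7.19 in contralateral tissue, a difference of -0.68 ± 0.14 (limma adjusted p = 0.0104). The pair Kcnk13 and Kcnk12 moved in opposite directions in the 48 h protocol. Kcna3, a delayed rectifier of neurons and immune cells, had levels of 5.36 and 5.43 in ipsilateral tissue, against 5.84 and 5.90 in contralateral tissue (adjusted p = 0.0485), whereas its 72 h difference was 0.05. The 48 h call of Kcna3 was lost without most single arrays, without background correction, under median centring and in the authors' table. Kcnf1, another modifier subunit, fell by 0.47 ± 0.11 (adjusted p = 0.0176), and stood at 0.02 under median centring. Kcnab1 and Kcnt1, named after their values were seen to complete the count, fell by 0.45 and 0.42 at 48 h (adjusted p = 0.0349 and 0.0361), and stood at 0.04 and 0.07 under median centring.

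**Figure D3:**
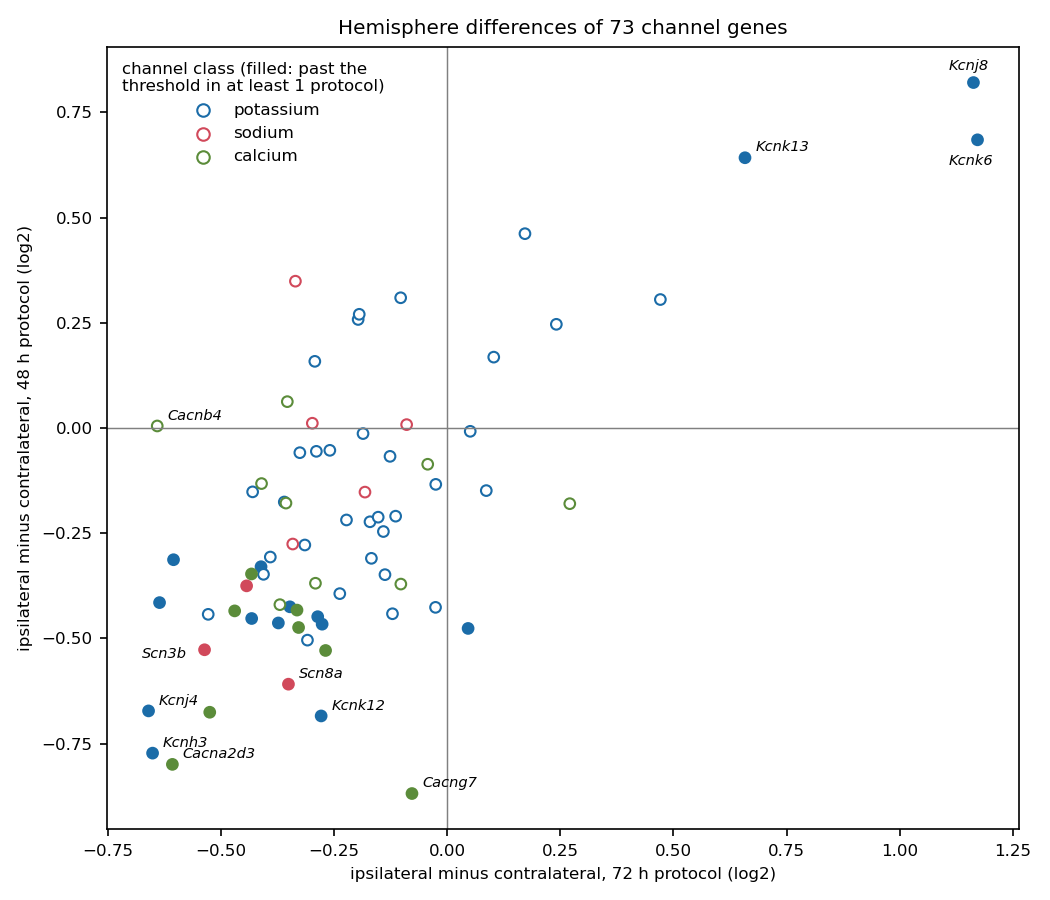
Ipsilateral minus contralateral difference (log2, quantile normalization) of each of the 73 members in the 72 h protocol (horizontal axis) and the 48 h protocol (vertical axis), coloured by class and filled where the threshold was passed in at least 1 protocol. Kcnj8, Kcnk6 and Kcnk13 lie farthest to the upper right, where Kcnq1, Kcne4, Kcne1l and Kcng4 also lie without passing. Kcnh3, Cacna2d3 and Kcnj4 lie at the lower left, and the decreases at 48 h do not pass under median centring.

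Of 3 measured sodium channel beta subunit genes 2 fell in both protocols, and of 5 pore genes 1 fell at 48 h. Among all genes 4.16% fell at 72 h and 8.06% at 48 h. Whether the shares of beta subunit and pore genes differ was not tested. Under median centring no sodium channel gene fell in either protocol, and 3 rose at 48 h, where 52.2% of all genes did. Scn3b and Scn4b encode beta subunits, which modulate gating and adhesion, and Scn4b is abundant in striatal projection neurons. Scn4b levels were 6.36, 6.38, 6.35 and 6.42 in ipsilateral tissue, against 6.81, 6.82, 6.72 and 6.81 in contralateral tissue and 7.08 and 6.99 in untreated brain. The 3 sets did not overlap, with ipsilateral lowest and untreated highest. It fell by 0.44 ± 0.11 at 72 h (limma adjusted p = 0.0206) and by 0.38 ± 0.11 at 48 h (adjusted p = 0.035), but stood at 0.08 at 48 h under median centring. Scn3b levels were 7.88, 7.96, 7.88 and 8.16 in ipsilateral tissue, against 8.31, 8.61, 8.57 and 8.53 in contralateral tissue and 8.18 and 8.59 in untreated brain. Ipsilateral arrays lay below contralateral ones, and KO untreated brain came close to the highest ipsilateral array. It fell by 0.54 ± 0.13 at 72 h (adjusted p = 0.0206) and by 0.53 ± 0.13 at 48 h (adjusted p = 0.0198).

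Scn8a encodes the main sodium channel pore of the axon initial segment. Its level was 7.36, 7.11, 7.17 and 6.91 in ipsilateral tissue, against 7.65, 7.51, 7.67 and 7.63 in contralateral tissue and 7.63 and 7.49 in untreated brain. All ipsilateral arrays were below all others. The fall of 0.61 ± 0.11 at 48 h passed (limma adjusted p = 0.00458) and the difference of -0.35 ± 0.11 at 72 h did not (adjusted p = 0.0601). A second Scn8a probe gave -0.59 and -0.46 in these protocols. Scn2a, another pore gene of excitatory neurons, differed by -0.34 at 72 h and -0.28 at 48 h, and Scn3a by -0.18 and -0.15. The beta subunit gene Scn2b differed by -0.30 and 0.01, and none of these genes passed the threshold. A second Scn2b probe gave -0.30 and -0.33 without passing. Scn1a, the pore gene typical of inhibitory interneurons, differed by -0.09 and 0.01, also not past the threshold. Under median centring at 48 h, Scn1a stood at 0.51 and Scn2b at 0.48, both past the threshold (adjusted p = 0.0412 and 0.0258), beside the median of 0.43 over all genes.

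Of 11 auxiliary calcium channel genes 3 fell at 72 h and 5 at 48 h, where 4.16% and 8.06% of all genes fell. Of 6 pore genes none fell at 72 h and 2 at 48 h. Whether the shares of auxiliary and pore genes differ was not tested. Under median centring 1 calcium channel gene fell at 72 h and none at 48 h, against 0.749% and 0.46% of all genes. Cacng2, Cacng4 and Cacng7 encode gamma subunits that also act as partners of AMPA-type glutamate receptors. Cacng2 levels were 9.37, 9.48, 9.31 and 9.20 in ipsilateral tissue, against 9.82, 9.96, 9.71 and 9.67 in contralateral tissue and 9.46 and 9.54 in untreated brain. Ipsilateral arrays lay below contralateral arrays but overlapped untreated brain. It fell by 0.47 ± 0.11 at 72 h (limma adjusted p = 0.0201) and by 0.43 ± 0.11 at 48 h (adjusted p = 0.0246), a second probe gave -0.24 and -0.10 without passing, and the 48 h value was 0.06 under median centring. Cacng4 levels at 48 h were 6.07 and 6.26 in ipsilateral tissue, against 7.10 and 6.57 in contralateral tissue, a fall of 0.68 ± 0.16 (adjusted p = 0.0186), and the 72 h difference of -0.53 ± 0.16 did not pass (adjusted p = 0.0582). Cacng7 levels were 6.15, 6.62, 5.86 and 6.26 in ipsilateral tissue, against 6.62, 6.31, 6.71 and 7.15 in contralateral tissue and 7.32 and 6.81 in untreated brain. It fell by 0.87 ± 0.23 at 48 h (adjusted p = 0.0292), the lowest member in that comparison, while the 72 h arrays of the 2 sides overlapped at a difference of -0.08.

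Among the other auxiliary subunits, Cacna2d2 had levels of 9.72 and 9.67 in ipsilateral tissue at 48 h, against 10.31 and 10.14 in contralateral tissue, a fall of 0.53 ± 0.13 (limma adjusted p = 0.0183). Cacna2d1, the alpha2delta subunit that binds gabapentin, differed by -0.37 ± 0.23 at 72 h and -0.42 ± 0.23 at 48 h and did not pass. The beta subunit gene Cacnb1, whose product chaperones the pore, had levels of 6.01 and 6.20 in ipsilateral tissue at 72 h, against 6.35 and 6.73 in contralateral tissue (adjusted p = 0.0462). Its call was lost without most single arrays, without background correction, under median centring and in the authors' table. Cacnb4 differed by -0.64 ± 0.19 at 72 h (adjusted p = 0.0536) and by 0.00 at 48 h, and its second probe gave -0.09 and -0.36. Of the pore genes, Cacna1a, which carries the P/Q-type current at synapses, fell by 0.47 ± 0.13 at 48 h (adjusted p = 0.0323) and differed by -0.33 at 72 h without passing. A second Cacna1a probe passed in both, at -0.50 and -0.63 (adjusted p = 0.0338 and 0.0109 when all detected probes were fitted). Cacna1h, a T-type gene named after its values were seen to complete the count, fell by 0.43 ± 0.13 at 48 h (adjusted p = 0.0442) and stood at 0.06 under median centring. The pore genes Cacna1c, Cacna1d and Cacna1g did not pass in either protocol, at -0.41, 0.27 and -0.10 at 72 h and -0.13, -0.18 and -0.37 at 48 h. Cacna1b was below background on all 4 hemisphere arrays at 72 h and on both contralateral arrays at 48 h, and it passed in neither protocol.

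Several potassium channel genes that are prominent in neurons showed no difference past the threshold. Kcna1 and Kcna2, the axonal delayed rectifiers, differed by -0.10 and -0.36 at 72 h and by 0.31 and -0.18 at 48 h, and under median centring Kcna1 passed at 48 h, at 0.73 (adjusted p = 0.0221). Kcnd2, the A-type pore that Kcnip2 binds, differed by -0.29 and -0.06, and under median centring the 48 h value was 0.44 with an adjusted p of 0.0313. Kcnk1 differed by -0.17 and -0.22. Kcnma1, the large-conductance calcium-activated channel, differed by -0.24 and -0.39. Another Kcnma1 probe gave -0.37 and -0.39, and it passed at 48 h when all detected probes were fitted (limma adjusted p = 0.0449). A further probe gave -0.23 and -0.05 without passing.

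**Figure D4:**
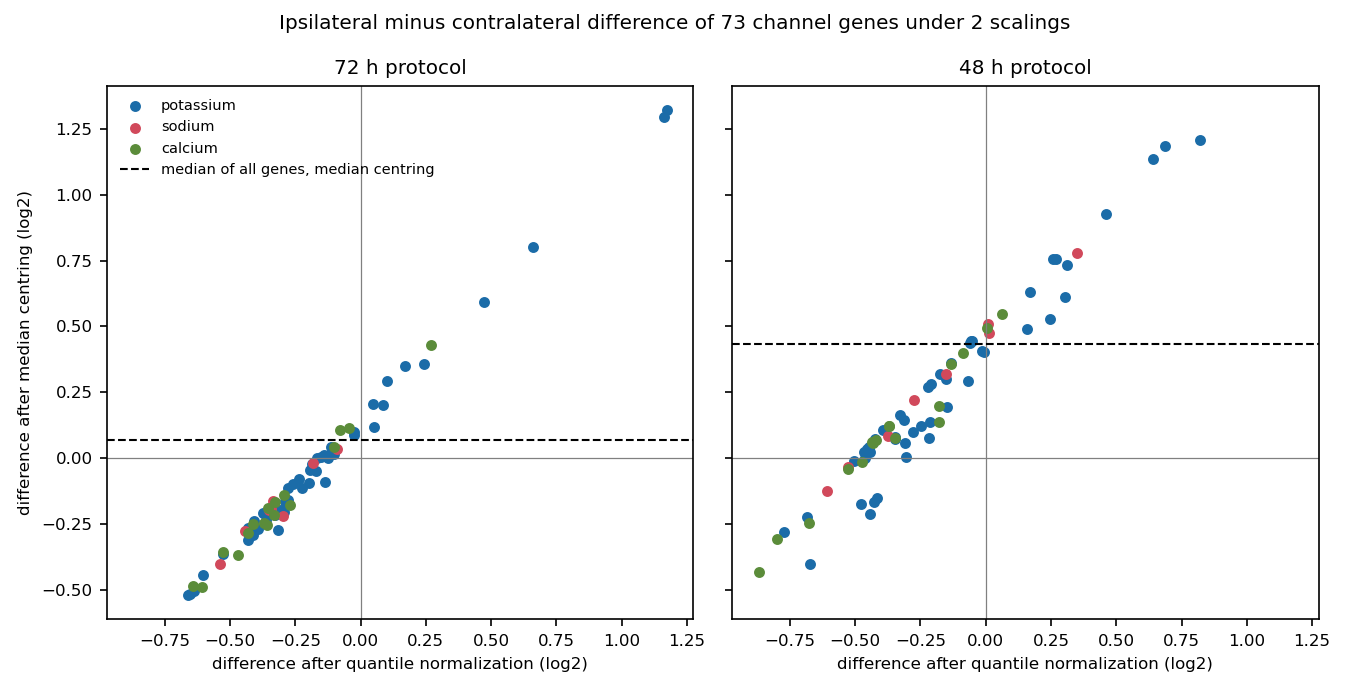
Ipsilateral minus contralateral difference (log2) of the 73 members after quantile normalization (horizontal axis) and after median centring (vertical axis), for the 72 h protocol (left) and the 48 h protocol (right). The dashed line is the median of all genes after median centring, 0.07 at 72 h and 0.43 at 48 h; most members lie below it, but at 48 h many differences below 0 after quantile normalization lie above 0 after median centring.

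Partner and transporter genes gave the wider setting. Of 22 measured channel partner genes, 3 fell at 72 h and 5 at 48 h and none rose, with medians of -0.31 and -0.21, where 4.16% and 8.06% of all genes fell and 10.3% and 12.7% rose. Rem2, a small GTPase that inhibits calcium channels, fell by 1.04 ± 0.13 at 72 h (limma adjusted p = 0.000458) and by 0.50 ± 0.13 at 48 h (adjusted p = 0.0282). Sptbn4, the spectrin of the axon initial segment, fell by 0.58 and 0.56 (adjusted p = 0.0121 and 0.0134), and Ank3, the ankyrin that anchors sodium channels there, fell by 0.39 at 48 h (adjusted p = 0.0343). Of 16 measured pumps and transporters, 1 rose and 2 fell at 72 h and 4 fell at 48 h, to be read against the same shares of all genes. Fxyd1, a regulator of the sodium pump, rose by 0.85 ± 0.15 at 72 h (adjusted p = 0.00355), Slc12a5, the neuronal chloride exporter, fell by 0.57 ± 0.12 (adjusted p = 0.0129), and Atp2b1, a plasma membrane calcium pump, fell by 0.78 ± 0.16 at 48 h (adjusted p = 0.00984). The sodium pump catalytic subunits were not analysed here.

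The protocols were then compared directly. No member passed for a difference between the hemisphere contrasts of the 2 protocols (0 of 73, with 0.0107% of all genes passing), and 8 members (11%) had an unadjusted p under 0.05, against 10.9% of all genes. The widest gaps were those of Cacng7, at 0.79 ± 0.33 (72 h minus 48 h, limma adjusted p = 0.435), and Scn7a, a sodium channel gene of glia and other non-neuronal cells, at -0.68 ± 0.24 (adjusted p = 0.336). A gene listed above as passing in 1 protocol is therefore not shown to differ between them. Between ipsilateral tissues of the protocols no member passed (0 of 73, against 3.36% of all genes, 1.87% higher and 1.49% lower at 72 h), and 18 members (24.7%) had an unadjusted p under 0.05, against 21.7% of all genes. Kcna1 differed most, at -0.83 ± 0.26 (adjusted p = 0.106), with levels of 5.82 and 5.28 at 72 h and 6.51 and 6.26 at 48 h, but it was above background on only 1 ipsilateral array at 72 h. Scn1a followed at -0.76 ± 0.23 (adjusted p = 0.101), with levels of 9.08 and 8.25 at 72 h and 9.45 and 9.39 at 48 h, and for both genes the WT array of the 72 h protocol was the lowest of the 4. For the alternatives that follow, the share of all genes that passed is not given here. The count was 19 under median centring, 1 higher and 18 lower at 72 h, which shifted the median of all genes to -0.26. It was 1 without either 72 h contralateral array (Kcna1, lower) and 2 without either untreated array (Kcna3, higher, and Kcnj6, lower).

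Contralateral tissue was set against untreated brain, since it serves as the comparison for the injured side. No member passed (0 of 73, against 1.44% of all genes), and 11 (15.1%) had an unadjusted p under 0.05, against 15.5% of all genes. Cacng3, another gamma subunit gene, differed by -0.78 ± 0.23 (limma adjusted p = 0.142), with levels of 7.78, 7.99, 7.70 and 8.37 in contralateral tissue, against 9.03 and 8.45 in untreated brain. Without the WT untreated array the difference was -1.33 and passed. Kcnj9, which encodes a G-protein-gated rectifier, differed by -0.49 ± 0.14 (adjusted p = 0.132), with levels of 5.46, 5.54, 5.61 and 5.77 in contralateral tissue, against 6.21 and 5.96 in untreated brain, and it was above background on only 1 of the 4 contralateral arrays. Both untreated arrays were above all 8 others for 8 members (11%, against 4.48% of all genes), namely Cacna1g, Cacng3, Kcnh3, Kcnh7, Kcnj12, Kcnj9, Kcns2 and Scn4b, and below all others for Kcnk6 (1.37% of members, against 6.45% of all genes).

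Genotype was the factor the study was built on. Over the 5 conditions no channel gene differed past the threshold between KO and WT (0 of 73, against 1.2% of all genes), and 12 (16.4%) had an unadjusted p under 0.05, against 17.9% of all genes. The median KO minus WT difference was -0.02 for potassium, -0.01 for sodium and -0.03 for calcium channel genes, beside -0.01 over all genes. KO was below WT in all 5 conditions for 4 members (5.48%, against 8.34% of all genes) and above for 5 (6.85%, against 7.91%). The 11 members on chromosome 2, where Cd93 lies, had a median of 0.01. Kcnd1, named after its values were seen, had the smallest adjusted p of the members, at 0.34 ± 0.07 (limma adjusted p = 0.064). It did not pass. KO was above WT for Kcnd1 by 0.29 and 0.44 in ipsilateral tissue at 72 h and 48 h. The values were 0.43 and 0.36 in contralateral tissue and 0.15 in untreated brain. By size, Kcna1 differed most at 0.47 ± 0.16 (limma adjusted p = 0.188), followed by Scn1a at 0.43 ± 0.15 (adjusted p = 0.178).

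The differences of Kcna1 and Scn1a were widest in the 72 h protocol. Scn1a was 0.83 and 0.96 higher in KO than in WT in ipsilateral and contralateral tissue of that protocol, against 0.06 and -0.09 at 48 h and 0.39 in untreated brain. Kcna1 differed by 0.54 and 1.35 in the same order at 72 h, 0.24 and 0.14 at 48 h and 0.06 in untreated brain, but at 72 h it was above background on only 1 array of each side, so the sizes there are uncertain. For both genes, and for Cacna2d1, Kcnh1 and Kcnrg, the 2 WT arrays of the 72 h protocol lay below the other 8 arrays. Such a pair of lowest arrays occurred for 5 members (6.85%) and for 3.4% of all genes. The same 2 WT arrays lay above the other 8 for 2 members (2.74%, against 3.81% of all genes), namely Kcnj16 and Kcnn1. The 2 KO arrays of the 72 h protocol lay below the other 8 arrays for 4 members (5.48%, against 4.63% of all genes), namely Kcna6, Kcne1l, Kcnn1 and Kcnu1, and above them for none (against 2.47% of all genes). The 2 KO arrays of the 48 h protocol lay below the other 8 for 1 member, Kcnip3 (1.37%, against 0.995% of all genes), and above them for 1 member, Kcng4 (1.37%, against 1.1% of all genes). The 2 WT arrays of the 48 h protocol lay below the other 8 arrays for no member (against 2.59% of all genes) and above them for none (against 1.92% of all genes). With 1 array per group, genotype in that protocol and the tissue on those 2 arrays cannot be told apart.

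**Figure D5:**
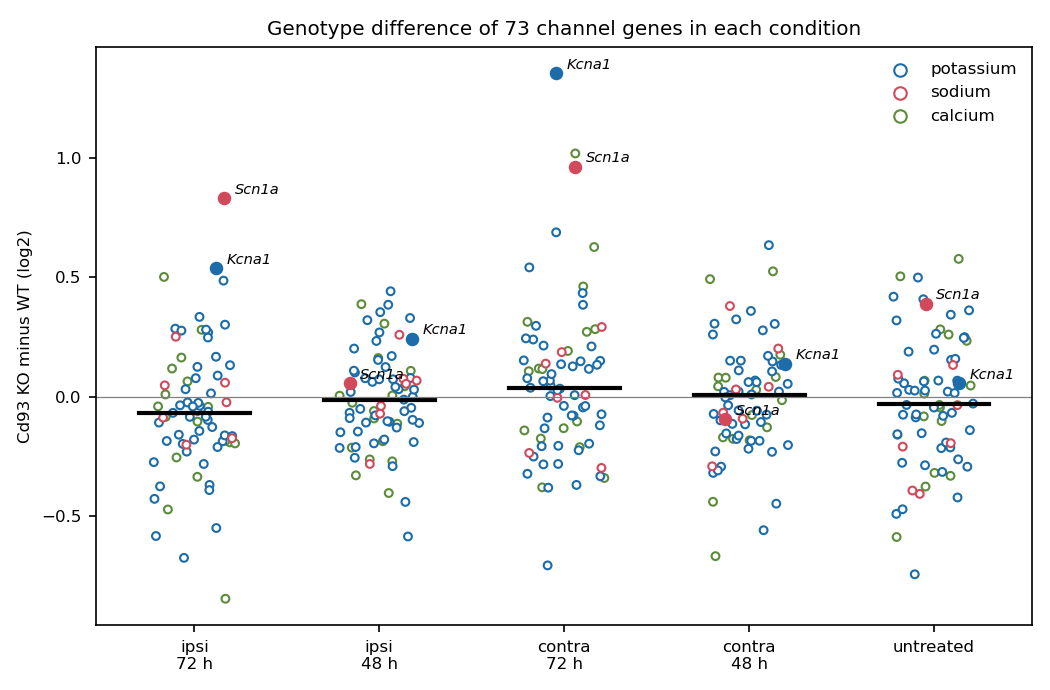
KO minus WT difference (log2, vertical axis) of the 73 members in each of the 5 conditions (horizontal axis), coloured by class, with black bars at the medians and Scn1a and Kcna1 filled. The medians lie between -0.07 and 0.04, and Scn1a and Kcna1 stand at 0.83 and 0.54 in ipsilateral and 0.96 and 1.35 in contralateral tissue at 72 h, where Cacna2d1 stands at 1.02 in contralateral tissue.

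The genotype difference was also compared between ipsilateral and the other tissues. No member passed (0 of 73, against 0% of all genes), and 4 (5.48%) had an unadjusted p under 0.05, against 3.86% of all genes. The largest were Cacnb4 at 0.57 ± 0.19 and Cacng7 at -0.56 ± 0.26, both with a limma adjusted p of 0.998. Cacnb4 levels in ipsilateral tissue were 6.61, 6.60, 7.27 and 6.88, against 7.08, 7.41, 6.98 and 7.16 in contralateral tissue and 6.85 and 7.43 in untreated brain. KO was below WT on the contralateral and untreated arrays of Cacnb4 and at or above it on the ipsilateral arrays.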

How the data were processed

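RNA of 10 mouse brain samples was measured on Illumina Mouse-6 arrays. Per the file headers, the deposited table without normalization gives an intensity and a detection value for each of 46373 probes. The detection value is a fraction that rises with intensity in the deposited table, so it was read as 1 minus p. The authors' value table holds intensity normalized within 5 pairs of arrays, as its sorted values show (99.99% or more of ranks equal within 1% inside a pair, at most 56.1% between pairs), so it served only as an alternative. Software used by the authors is not given in the sources used here.

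With limma 3.58.1 in R 4.3.3, background was corrected (nec, offset 16), arrays were quantile-normalized and log2 values taken. A probe needed a detection p under 0.01 on 2 or more arrays (16067 did), and the brightest stood for each gene. Symbols came from the platform annotation, updated through RefSeq GRCm38.p6 (29758 of 29800 single-gene probes matched), used otherwise only for promoter sequences and chromosomes. An additive limma model of 5 conditions and genotype, with 4 residual degrees of freedom, was fitted to all genes. The model with an added genotype by ipsilateral term had 3. Adjusted p-values are Benjamini-Hochberg values over all genes of a comparison. The fit was tested on simulated data.

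Named genes were those past the threshold of 0.05 in a hemisphere comparison, at most the 12 highest and 12 lowest, the 2 largest differences in the other comparisons, and 36 channel genes given where measured (27 were). The members, lists and tests were chosen with earlier results of these data known. Alternatives were no background correction, an offset of 50, median centring, the authors' table, other detection filters, every probe, a variance trend, fewer arrays, leaving out each array and, added after seeing the data, a block of hemisphere pairs.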

Additional observations from a re-analysis of the deposited data

How the results depend on the processing

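Hemisphere counts moved with the scaling and with single arrays. Shares of all genes were given above only for the hemisphere counts under median centring and with the replicate block. The other counts here therefore do not show whether channel genes moved apart from all genes. The 72 h count of 15 became 5 under median centring (3 higher, 2 lower) and 6 in the authors' value table, and ranged from 2 to 16 without 1 array. The 48 h count of 22 became 18 under median centring (all higher), 13 in the authors' table and 41 with only the arrays compared, and ranged from 6 to 23 without 1 array. Median centring turned the 48 h differences of 42 members above 0, among them 8 of the 19 called lower: Kcnf1 (0.024), Scn4b (0.084), Cacng2 (0.063), Kcnk2 (0.036), Kcns2 (0.0021), Kcnab1 (0.044), Kcnt1 (0.075) and Cacna1h (0.06). Kcnd2, not called, turned to 0.44 and passed. For ipsilateral tissue between protocols the count of 0 became 19 under median centring, 1 each without background correction (Kcnk6), with an offset of 50 (Kcnk6), in the authors' table (Scn1a) and with detection on all 10 arrays (Kcna3), and 0 to 2 without 1 array. For contralateral against untreated it became 24 in the authors' table, whose pairs are not on a common scale, and 0 to 1 without 1 array (Cacng3, without WT untreated). For genotype it became 1 with detection on all 10 arrays (Kcnd1). Both interaction counts were 0 under all alternatives run. The labels give no replicate numbers, but each genotype and protocol has 1 array of each hemisphere. With these pairs as a replicate block, chosen after seeing the data and leaving 2 residual degrees of freedom, the counts were 24 at 72 h, 33 at 48 h and 0 for the difference between protocols. Whether the arrays of a pair share animals is not stated. A lone array was assumed to vary like the others. Members near background, such as Kcnj4, Kcnip2 and Kcnj8, have compressed differences, and where a side was below background their folds rest on uncertain levels.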
